A study of Mus musculus with 24 samples.

Results

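The hippocampus is not a muscle tissue, but reads of striated muscle genes were found in it, and 9 of the 47069 gene IDs in each count file were followed here through mice that lack Kdm5c. They include the actin gene Acta1, the phosphoglycerate mutase gene Pgam2, the triad gene Jsrp1, and the giant sarcomere genes Ttn and Neb. The others are the creatine kinase gene Ckm, the Z-disc gene Actn2, the sarcomere formin gene Fhod3 and the troponin gene Tnnt1. These 9 were chosen from their levels in the mutant and comparison libraries of the same data, some because they were higher in the mutants and others because they were not. Their genotype differences are therefore a description and carry no test. Messenger RNA was sequenced from hippocampal tissue of male mice aged 2 to 4 months in 18 libraries, each a pool of 3 mice, in 6 groups of 3 libraries. KO mice were hemizygous nulls (Kdm5c-/y) that lack the gene throughout life, and KO and WT mice shared a mixed C57 and 129 background (F1). Both genotypes were sampled untreated and after 1 h of novelty, in which each mouse explored an unfamiliar box with tubes and toys. The ifKO mice carried floxed Kdm5c (Kdm5c f/f) and CaMKIIα-creERT2, an inducible Cre recombinase driven in excitatory forebrain neurons, for deletion in the adult. They were set against control mice, and both were kept on pure C57BL/6J and had no novelty exploration. Untreated here means without novelty and says nothing of tamoxifen. The sources used here do not say if those controls had the Cre transgene or tamoxifen. Kdm5c encodes an enzyme that removes methyl groups from lysine 4 of histone H3, a mark of active promoters. It was read at 62.1 to 100 CPM in all libraries, KO and ifKO included, so its gene-level count does not check the deletion. CPM are counts per M counts assigned to genes, scaled by TMM factors.

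In striated muscle, thin filaments of actin slide past thick filaments of myosin within the sarcomere. Nebulin runs along the thin filament, titin spans from the Z-disc to the M-band, and alpha-actinin ties thin filaments together at the Z-disc. Calcium released at the triad, where membrane tubules meet the sarcoplasmic reticulum, starts contraction through the troponin complex, and creatine kinase and the glycolytic enzymes keep up the supply of ATP. Neurons use actin, actinins, ryanodine receptors and glycolysis too, mostly through other members of the same gene families.

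Acta1 and Pgam2 were higher in both mutants and Actn2 was not, so the promoters of these 3 genes are shown side by side. Each is the 250 bases before the annotated start, 5′ to 3′, from RefSeq on GRCm38.p6, which held an entry for 6 of the 9 genes. Capitals mark 3 kinds of muscle promoter element: the CArG box, which serum response factor binds, the MEF2 site, and CANNTG, the E-box core that myogenic factors and many others bind. All 3 patterns read the same on both strands, and CACGTG is one form of CANNTG.
Acta1 promoter, chr8:123894776-123895025, minus strand: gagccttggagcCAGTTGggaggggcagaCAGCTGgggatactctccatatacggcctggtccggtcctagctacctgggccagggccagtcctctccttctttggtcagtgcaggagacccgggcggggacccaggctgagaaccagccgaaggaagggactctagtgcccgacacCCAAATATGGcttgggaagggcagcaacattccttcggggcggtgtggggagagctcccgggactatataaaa
Pgam2 promoter, chr11:5803797-5804046, minus strand: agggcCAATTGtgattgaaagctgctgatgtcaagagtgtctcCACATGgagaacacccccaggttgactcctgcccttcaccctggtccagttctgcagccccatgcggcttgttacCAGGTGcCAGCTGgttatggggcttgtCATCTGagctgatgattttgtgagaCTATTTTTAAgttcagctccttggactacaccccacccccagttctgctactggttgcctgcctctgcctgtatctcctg
Actn2 promoter, chr13:12340733-12340982, minus strand: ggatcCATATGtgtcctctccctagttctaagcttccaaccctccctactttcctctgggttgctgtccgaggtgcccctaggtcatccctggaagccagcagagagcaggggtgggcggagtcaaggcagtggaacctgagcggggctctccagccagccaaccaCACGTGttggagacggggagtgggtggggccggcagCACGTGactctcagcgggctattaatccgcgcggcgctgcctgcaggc
The Acta1 promoter held 1 CArG box, 73 bases before the start, and 2 CANNTG matches. The Pgam2 promoter held 1 MEF2 site, 80 bases before the start, and 5 CANNTG matches. The Actn2 promoter held neither a CArG box nor a MEF2 site but 3 CANNTG matches, of which 2 were CACGTG. Among 32851 promoters of the same length, 1.47% held a CArG box, 2.92% a MEF2 site, 66.2% a CANNTG and 6.02% a CACGTG. Of the other promoters with an entry, that of Ttn held a MEF2 site and those of Ckm and Tnnt1 neither element. A match is only a run of letters and says nothing of binding in these cells.

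The libraries held 16 to 45.6 M counts in genes. The 10 markers of hippocampal neurons, the labelled tissue, were all read at 1 CPM or more in every group and summed to 7440 to 9970 CPM per library. Choroid plexus markers, from tissue beside the hippocampus, summed to 1070 CPM in untreated KO library 2 and to 800 CPM in control library 1, against 151 to 255 CPM in the other 16 libraries. In novelty, KO library 2 and WT library 1 stood apart from their groups in an earlier analysis of these data. In bulk tissue, more cells with a transcript and more of that transcript per cell cannot be told apart.

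Acta1, the skeletal muscle alpha-actin of the thin filament (chromosome 8, 123891769 to 123894751, GRCm38), was several-fold higher in both mutants. It stood at 18.8, 16.5 and 17.8 CPM in untreated KO libraries 1, 2 and 3, against 4.99, 4.54 and 4.33 CPM in untreated WT. After novelty it was at 15.9, 14.3 and 16.7 CPM in KO and 5.13, 4.23 and 3.41 CPM in WT. The ifKO libraries had 10.3, 10.5 and 9.92 CPM and the controls 3.76, 4.21 and 3.46 CPM. Every mutant library lay above every library of its comparison group, and the lowest mutant library, at 9.92 CPM, lay above the highest WT or control library, at 5.13 CPM. The fitted log2 fold changes (± SE, n = 3 libraries a group) were 1.95 ± 0.13 for untreated KO, 1.87 ± 0.13 for KO after novelty and 1.43 ± 0.09 for ifKO, or 3.85-fold, 3.64-fold and 2.70-fold. These values rest on 1742 counts in the untreated KO libraries and 286 in the untreated WT libraries.

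Pgam2, the muscle isoform of phosphoglycerate mutase in glycolysis (chromosome 11, 5801640 to 5803733), moved in the same direction. Untreated KO libraries had 17.3, 17.8 and 17.3 CPM and untreated WT libraries 5.61, 5.83 and 7.06 CPM. After novelty KO libraries had 20.9, 18.8 and 17.4 CPM and WT libraries 5.67, 6.62 and 5.45 CPM. The ifKO libraries had 7.88, 9.40 and 8.62 CPM against 4.90, 4.69 and 3.87 CPM in controls, again with no overlap. The log2 fold changes were 1.49 ± 0.11, 1.68 ± 0.11 and 0.95 ± 0.11, that is 2.82-fold and 3.20-fold in KO and 1.93-fold in ifKO.

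Jsrp1 (chromosome 10, 80808496 to 80813498) encodes JP-45, a protein of the junctional sarcoplasmic reticulum that takes part in excitation-contraction coupling. It was lower in level than Acta1 and Pgam2 but differed by a similar factor. Untreated KO libraries had 6.42, 5.09 and 5.28 CPM and untreated WT libraries 1.23, 1.74 and 2.23 CPM. With novelty, KO libraries had 6.26, 7.07 and 5.92 CPM, against 1.89, 1.74 and 1.38 CPM in WT. In ifKO libraries they were 4.35, 4.58 and 4.42 CPM, against 1.79, 1.53 and 1.27 CPM in controls. No mutant library overlapped its comparison group, and the log2 fold changes were 1.67 ± 0.19, 1.92 ± 0.19 and 1.55 ± 0.14. The estimates for KO and ifKO come from separate experiments with different strains and read lengths, and the difference between them was not tested.

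**Figure D1:**
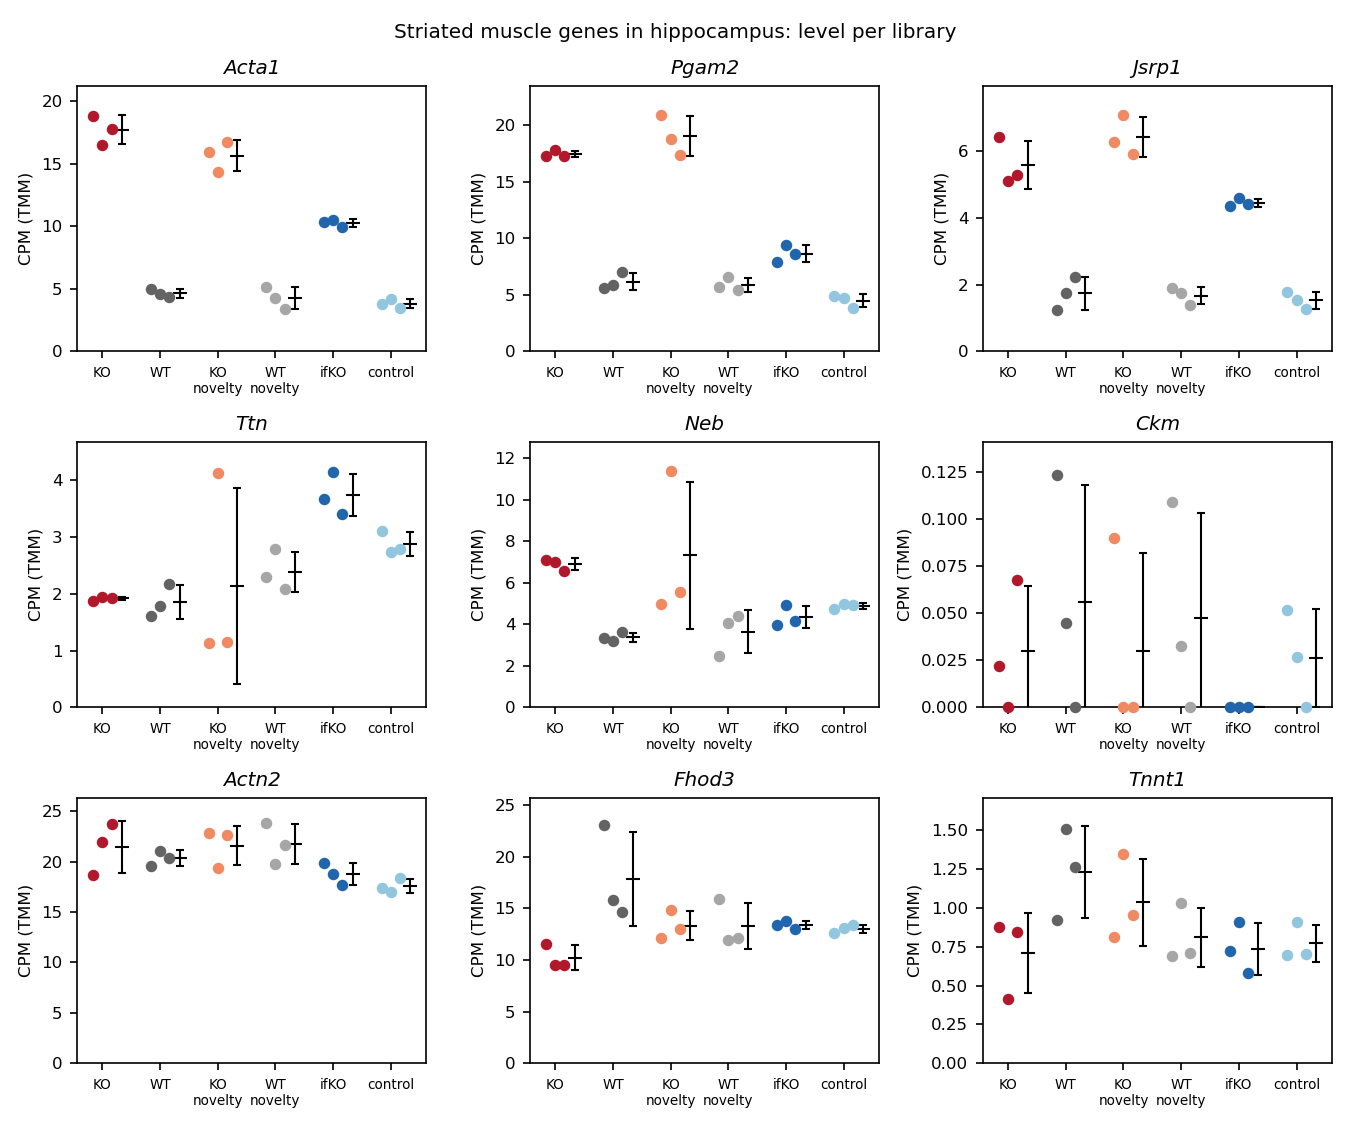
CPM (y axis, from 0) of the 9 genes in each library, by group, with libraries 1 to 3 left to right as points and the mean with its SD as a bar. In the panels of Acta1, Pgam2 and Jsrp1 the mutant libraries lie above all of their comparison libraries in all 3 pairs of groups, while for Actn2 they overlap in all 3 pairs.

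Nebulin was higher in KO but not in ifKO, a difference between experiments that was not tested. Neb (chromosome 2, 52136647 to 52378474), whose giant product runs along the thin filament, stood at 7.10, 7.03 and 6.56 CPM in untreated KO, against 3.33, 3.20 and 3.61 CPM in untreated WT. After novelty it was at 5, 11.4 and 5.57 CPM in KO and 2.47, 4.07 and 4.41 CPM in WT. In ifKO it was at 3.97, 4.94 and 4.17 CPM, against 4.72, 4.98 and 4.94 CPM in controls. Both KO groups lay wholly above their WT groups, while ifKO and control libraries overlapped. The log2 fold changes were 1.03 ± 0.28, 0.99 ± 0.28 and -0.16 ± 0.11. Without novelty KO library 2 and novelty WT library 1 the value after novelty was 0.32, and with offsets for GC content and transcript length the value in untreated KO was 0.83.

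Titin gave no common pattern. Ttn (chromosome 2, 76703980 to 76982547), the molecular spring of the sarcomere, had 1.88, 1.94 and 1.93 CPM in untreated KO libraries and 1.60, 1.78 and 2.18 CPM in untreated WT libraries. After novelty it had 1.13, 4.12 and 1.15 CPM in KO, against 2.29, 2.78 and 2.09 CPM in WT. The ifKO libraries had 3.67, 4.14 and 3.40 CPM and the control libraries 3.11, 2.73 and 2.78 CPM. After novelty KO library 2 was the highest of its group and the other two lay below every WT library, and all ifKO libraries were above all controls. The log2 fold changes were 0.03 ± 0.38 for untreated KO, -0.23 ± 0.37 for KO after novelty and 0.38 ± 0.12 for ifKO. Leaving out KO library 2 took the novelty value to -1.07.

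Neb and Ttn have very long transcripts, and libraries differed in their reads of long transcripts as a class. For each library the log2 CPM of each gene was set against its mean over the experiment, and the median was taken over the 397 genes of the KO and WT experiment whose longest transcript is over 10 kb. This median was 0.31 in novelty KO library 2 and -0.13 and -0.16 in novelty KO libraries 1 and 3. In the same library 2, Ttn deviated by 1.04 and Neb by 1.22. In the untreated groups the median was 0.03 to 0.08 in KO libraries and -0.20 to -0.03 in WT libraries, while Neb deviated by 0.42 to 0.53 in KO and by -0.59 to -0.43 in WT. In ifKO and control libraries the median over 400 such genes stayed within -0.02 to 0.03. The part of this shift in the Neb and Ttn values was not tested beyond the offsets above.

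**Figure D2:**
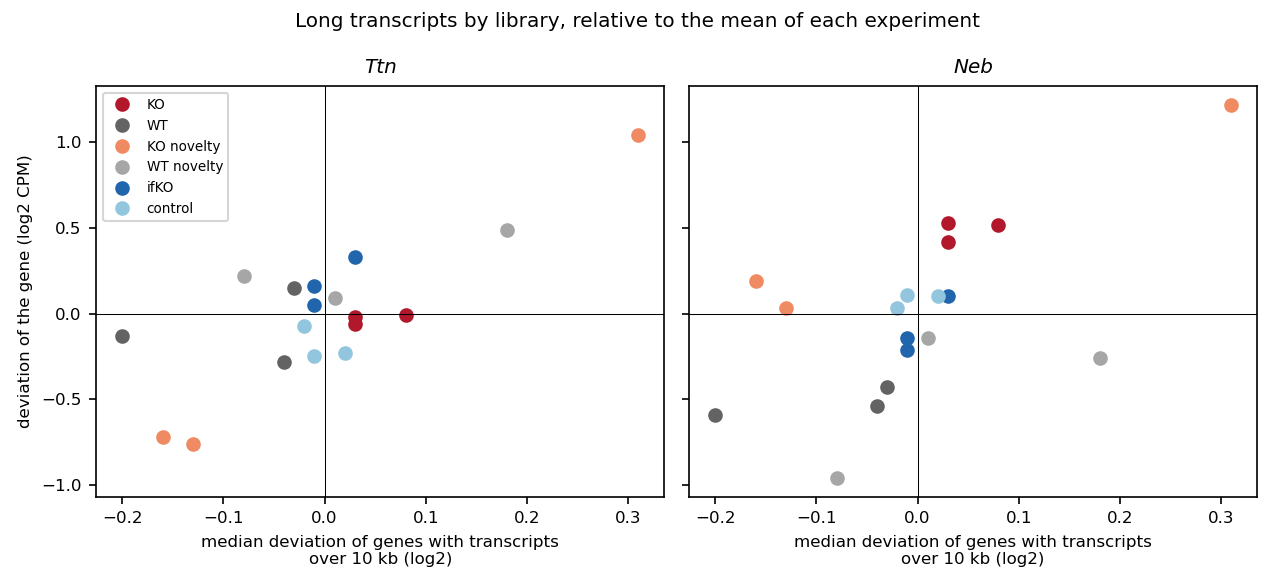
Deviation of log2 CPM from the mean of the experiment for Ttn (left) and Neb (right), on the y axis, against the median deviation of all genes with transcripts over 10 kb, on the x axis, with 1 point for each library, coloured by group. Novelty KO library 2 is the point farthest to the right, at 0.31, with Ttn at 1.04 and Neb at 1.22.

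Actn2, the alpha-actinin of the muscle Z-disc that also anchors receptors in neuronal spines (chromosome 13, 12269426 to 12340760), showed no genotype difference beyond the spread between libraries. It had 18.7, 22.0 and 23.7 CPM in untreated KO, against 19.6, 21.1 and 20.4 CPM in untreated WT. After novelty KO libraries had 22.8, 19.4 and 22.6 CPM and WT libraries 23.8, 19.8 and 21.7 CPM. The ifKO libraries had 19.9, 18.8 and 17.7 CPM and the controls 17.4, 17.0 and 18.4 CPM. Groups overlapped in all 3 comparisons, with log2 fold changes of 0.07 ± 0.10, -0.01 ± 0.10 and 0.10 ± 0.06.

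Fhod3, a formin that helps to assemble cardiac sarcomeres (chromosome 18), was lower in untreated KO, while its groups overlapped after novelty and in ifKO. It stood at 11.6, 9.57 and 9.57 CPM in untreated KO and at 23.1, 15.8 and 14.7 CPM in untreated WT, without overlap. After novelty it was at 12.1, 14.9 and 13.0 CPM in KO and 15.9, 11.9 and 12.1 CPM in WT. In ifKO it was at 13.4, 13.8 and 13.0 CPM, against 12.6, 13.1 and 13.4 CPM in controls. The log2 fold changes were -0.78 ± 0.17, 0.00 ± 0.17 and 0.04 ± 0.07. Without WT library 1, the highest of all 18 libraries, the untreated value was -0.56. Fhod3 overlaps Tpgs2 on the opposite strand, and the sources used here do not give the strand setting of the counting.

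Tnnt1, the troponin T of slow fibres (chromosome 7, 4504570 to 4516382), was read at 0.416 to 1.51 CPM in all libraries. In untreated KO it had 0.874, 0.416 and 0.846 CPM, all below the 0.925, 1.51 and 1.26 CPM of untreated WT, from 74 and 79 counts in all. The order did not hold after novelty, with 0.810, 1.35 and 0.953 CPM in KO and 0.691, 1.03 and 0.711 CPM in WT, or in ifKO, with 0.720, 0.911 and 0.580 CPM against 0.700, 0.911 and 0.702 CPM in controls. Its log2 fold changes were -0.75 ± 0.30, 0.31 ± 0.32 and -0.06 ± 0.24.

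Ckm, the muscle creatine kinase (chromosome 7, 19404776 to 19422841), was close to absent. Its 15 counts were spread over 18 libraries with 535.4 M counts in genes. Untreated KO and untreated WT libraries had 3 counts each, novelty KO libraries 2 and novelty WT libraries 4. The ifKO libraries had 0 counts in 118 M counts, which allows up to 0.0254 CPM (3 counts, counting error only), and the controls had 3. It was too low to be tested in any comparison, and no fold change is given.

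Across all genes, edgeR's quasi-likelihood test, adjusted by Benjamini-Hochberg over all genes tested, called 204 of 16392 genes (1.24%) at an adjusted p under 0.05 in untreated KO, 219 (1.34%) in novelty KO and 112 of 17367 (0.645%) in ifKO. Of the 8 chosen genes that could be tested, 3 were called higher and 1 lower in untreated KO, 3 higher in novelty KO and 3 higher in ifKO. The 3 higher genes were Acta1, Pgam2 and Jsrp1 each time and the lower one was Fhod3. Since the genes were chosen on these contrasts, nothing is read from those counts. Acta1, Pgam2 and Jsrp1 were called in every alternative processing tried in all 3 comparisons. Those fits use the libraries the genes were chosen on, so this too is a description.

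**Figure D3:**
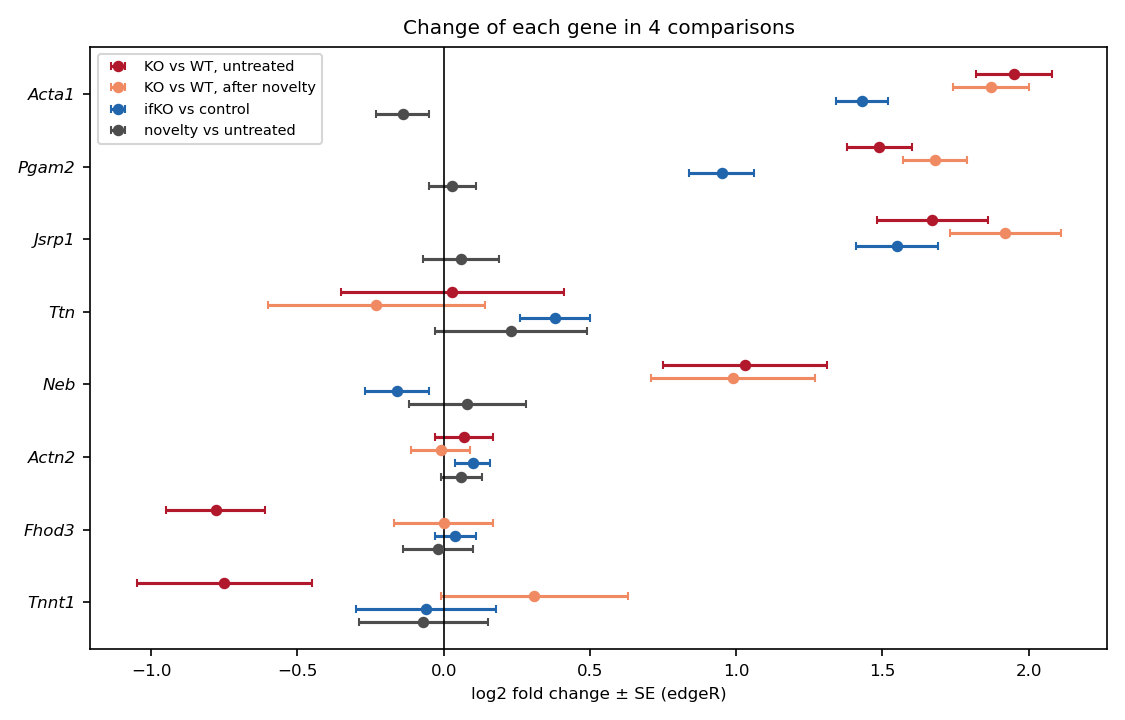
Fitted log2 fold change (x axis, edgeR, with its SE as a bar) of the 8 chosen genes that could be tested, in 4 comparisons. Acta1, Pgam2 and Jsrp1 lie between 0.95 and 1.95 in the 3 genotype comparisons and between -0.14 and 0.06 after novelty, and Neb lies at 1.03 and 0.99 in the KO comparisons and at -0.16 in ifKO.

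The genes were chosen on genotype differences, but from levels that include the novelty libraries. The novelty effect, averaged over KO and WT, was tested, though this test is not wholly apart from the choice. None of the chosen genes passed the test after 1 h of novelty. It called 222 of 16392 genes (1.35%) and 0 of the 8 chosen genes, whose adjusted p ran from 0.565 for Acta1 to 0.964 for Fhod3 by edgeR. The log2 fold changes, over 6 novelty and 6 untreated libraries, were -0.14 ± 0.09 for Acta1, 0.03 ± 0.08 for Pgam2, 0.06 ± 0.13 for Jsrp1 and 0.23 ± 0.26 for Ttn. They were 0.08 ± 0.20 for Neb, 0.06 ± 0.07 for Actn2, -0.02 ± 0.12 for Fhod3 and -0.07 ± 0.22 for Tnnt1. Shifts of opposite sign in KO and WT cancel in this average. From untreated to novelty, mean Fhod3 went from 17.9 to 13.3 CPM in WT and from 10.2 to 13.3 CPM in KO. Mean Tnnt1 went from 1.23 to 0.811 CPM in WT and from 0.712 to 1.04 CPM in KO. Means of Pgam2 and Jsrp1 also moved in opposite directions. The difference between the genotypes in their novelty change was not tested. The SE was widest for Ttn, Tnnt1 and Neb, so the data bound their novelty changes least tightly.

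Levels can be set side by side between genes only per length, here as CPM per kb of summed exon length. In untreated KO the order of the means was Pgam2 (20.8 CPM per kb), Acta1 (11.5), Actn2 (5.65), Jsrp1 (4.20), Fhod3 (1.41), Tnnt1 (0.323), Neb (0.259), Ttn (0.0164) and Ckm (0.0102). In untreated WT it was Pgam2 (7.34 CPM per kb), Actn2 (5.37), Acta1 (3.01), Fhod3 (2.47), Jsrp1 (1.3), Tnnt1 (0.559), Neb (0.127), Ckm (0.0192) and Ttn (0.0159). Neighbours whose libraries overlapped were Tnnt1 with Neb and Ttn with Ckm in KO, and Acta1 with Fhod3 and Ckm with Ttn in WT. In ifKO Pgam2 (10.3 CPM per kb) and Acta1 (6.68) again led Actn2 (4.96), whereas in controls Pgam2 (5.34) overlapped Actn2 (4.63) and both stood above Acta1 (2.48). Thus Acta1 stood above Actn2 in all mutant groups and below it in WT and control groups.

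The genes whose log2 CPM ran most closely with each chosen gene over the 12 KO and WT libraries were, for Acta1, Cacng6 and Dnah1 (Pearson r of 0.994 for both). For Pgam2 they were Tex14 (0.993) and Cacng6 (0.981), and for Jsrp1 Tex14 (0.983) and Rps4l (0.98). These r values are a description, and the part of the 4 groups of libraries in them was not tested. In ifKO Cacng6 and Dnah1 had log2 fold changes of 3.42 ± 0.13 and 1.99 ± 0.06, whereas Tex14 and Rps4l had -0.25 ± 0.26 and 0.33 ± 0.09. Fat4 (0.941) and Clstn2 (0.931) were nearest to Ttn, Lefty2 (0.957) and Robo1 (0.943) to Neb, and Tmem201 had an r of 0.869 with Actn2. Rgs6 (0.938) and Mab21l1 (0.935) were nearest to Fhod3, and Bud31 (0.895) and Slc16a13 (0.874) to Tnnt1. Among the chosen genes, Acta1, Pgam2 and Jsrp1 correlated at 0.96 to 0.98 with each other over the 12 libraries, which hold the genotype difference they were chosen on. Once group means were removed, r was -0.13 for Acta1 with Pgam2, 0.13 for Acta1 with Jsrp1 and 0.58 for Pgam2 with Jsrp1. Ttn and Neb, at 0.27 over all 12, correlated at 0.80 once group means were removed.

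Most other genes of striated muscle were not called in any comparison. Those called in a genotype comparison were higher in the mutant of that comparison. Lists of thin and thick filament, Z-disc, excitation-contraction coupling, energy metabolism, myogenic regulator and muscle membrane genes held 142 genes beside the chosen 9. Of 86 that could be tested in untreated KO, 6 were higher and 0 lower (6.98%, against 1.24% of all genes), with a median log2 fold change of 0.03, beside 0.001 over all genes tested. After novelty 5 of 86 were higher and 0 lower in KO (5.81%, against 1.34%; median 0.06, beside 0.002 over all genes), and in ifKO 3 of 94 were higher and 0 lower (3.19%, against 0.645%; median 0.02, beside 0.001 over all genes). By list, the untreated KO counts were 0 of 10 thin filament genes, 1 of 15 thick filament and M-band genes, 2 of 13 titin and Z-disc genes, 1 of 18 coupling genes, 1 of 11 energy genes, 0 of 7 myogenic regulators and 1 of 12 membrane and endplate genes. Calls over all genes were also mostly higher, so the direction is not particular to muscle genes. Over all genes, 178 were higher and 26 lower in untreated KO. In novelty KO 196 were higher and 23 lower, and in ifKO 107 higher and 5 lower. The muscle lists were written with earlier results of these data known and carry no test of their own. With any 1 of the 6 libraries compared left out, 2 or 3 list genes were called in untreated KO, 2 to 6 in novelty KO and 2 or 3 in ifKO. Without both novelty libraries that stood apart, 9 list genes were called in untreated KO and 9 in KO after novelty.

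**Figure D4:**
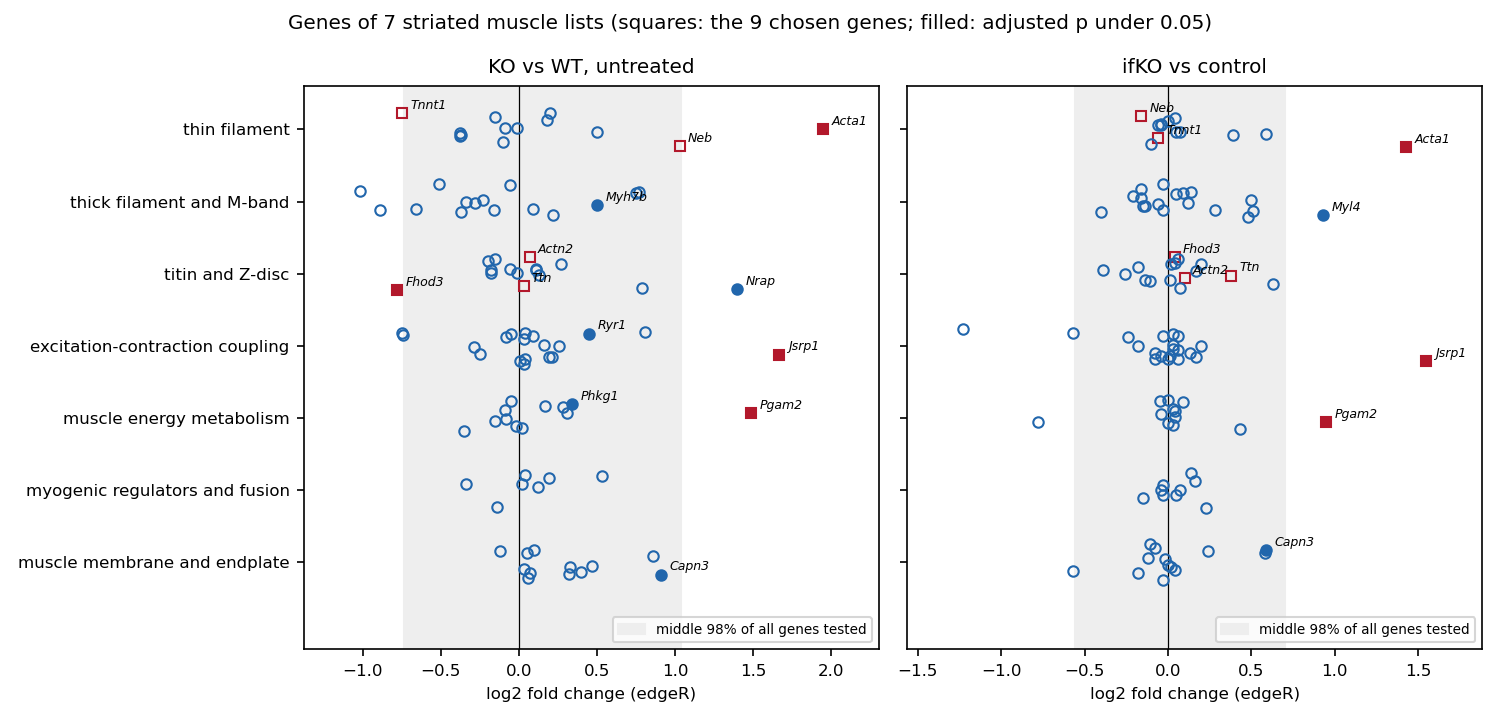
Log2 fold change (x axis, edgeR) of tested genes of the 7 striated muscle lists (rows) in untreated KO against WT (left) and ifKO against control (right), with squares for the 9 chosen genes, circles for the others, filled symbols for an adjusted p under 0.05 and a grey band over the middle 98% of all genes tested. In untreated KO most circles lie within the band, which runs from -0.73 to 1.04, and of the filled circles drawn Nrap at 1.40 lies beyond it.

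Capn3 was higher in every genotype comparison. It stood at 35, 34.1 and 38.3 CPM in untreated KO, against 18.6, 18.5 and 20 CPM in untreated WT. After novelty it was at 33.9, 29.7 and 33.1 CPM in KO and 18.9, 19.7 and 18.4 CPM in WT. In ifKO it was at 24.1, 24.4 and 26.4 CPM, against 17.4, 16.1 and 16.2 CPM in controls. Capn3 (chromosome 2, 120456019 to 120504913), a calcium-activated protease of muscle, averaged 35.8 ± 2.21 CPM in untreated KO and 19.0 ± 0.854 CPM in untreated WT (SD, n = 3 each; 0.91 ± 0.08, adjusted p = 1.41e-05 by edgeR). Its log2 fold change was 0.76 ± 0.08 in KO after novelty (adjusted p = 7.67e-05) and 0.59 ± 0.06 in ifKO (adjusted p = 0.000306). No mutant library overlapped its comparison group, and Capn3 was called under every alternative. Capn3 overlaps Ganc on the same strand, where reads can be hard to assign.

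The other calls reported by name were smaller than those of Capn3 or rested on fewer counts. Myh7b, a slow myosin heavy chain (chromosome 2, 155611212 to 155634307), averaged 16.8 ± 0.606 CPM in untreated KO and 11.9 ± 0.920 CPM in untreated WT (0.50 ± 0.09, adjusted p = 0.0163 by edgeR). It was also higher in KO after novelty (0.46 ± 0.10, adjusted p = 0.0306) and had 0.48 ± 0.10 in ifKO (adjusted p = 0.0529). Myh7b overlaps Trpc4ap on the opposite strand, which held 94920 counts in all 18 libraries, and with the strand setting not given their reads cannot be told apart where they overlap. Ryr1 (chromosome 7, 29003344 to 29125179), the calcium release channel of skeletal muscle that neurons use as well, averaged 87.2 ± 4.40 CPM in untreated KO and 63.8 ± 5.92 CPM in untreated WT (0.45 ± 0.10, adjusted p = 0.0495). It was not called in KO after novelty (0.25 ± 0.10, adjusted p = 0.427 by edgeR) or in ifKO (0.20 ± 0.05, adjusted p = 0.208). Phkg1 (chromosome 5, 129863421 to 129898549), the catalytic subunit of muscle phosphorylase kinase, averaged 38.9 ± 1.17 CPM in untreated KO and 30.6 ± 1.98 CPM in untreated WT (0.34 ± 0.07, adjusted p = 0.02). It was higher in KO after novelty by a like amount (0.35 ± 0.07, adjusted p = 0.016) and was not called in ifKO, at 31.7 CPM against 31.0 CPM in controls (0.03 ± 0.04, adjusted p = 0.944). Phkg1 overlaps Chchd2 on the same strand and Sumf2 and Zbed5 on the opposite strand. Nrap (chromosome 19, 56320035 to 56390037), which acts in myofibril assembly, averaged 1.32 ± 0.0681 CPM in untreated KO and 0.498 ± 0.123 CPM in untreated WT (1.40 ± 0.31, adjusted p = 0.0495). It was not called in KO after novelty (1.56 ± 0.36, adjusted p = 0.0512 by edgeR) or in ifKO (-0.39 ± 0.28, adjusted p = 0.88).

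**Figure D5:**
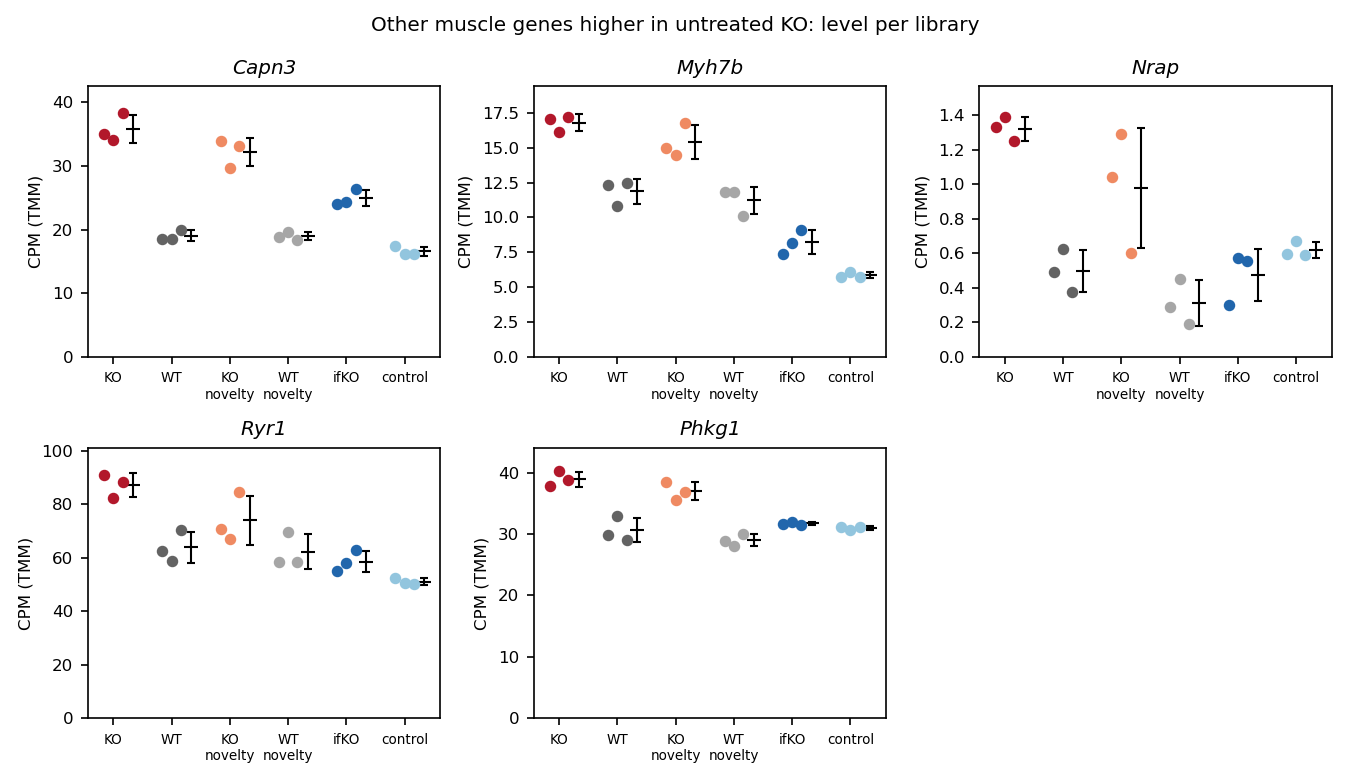
CPM (y axis, from 0) of 5 other muscle genes called higher in untreated KO, by group, with libraries 1 to 3 left to right as points and the mean with its SD as a bar. Capn3 lies higher in the mutant libraries in all 3 pairs of groups, and Nrap in ifKO lies below its controls.

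Of the calls outside untreated KO, Sln, sarcolipin, which restrains the calcium pump of the sarcoplasmic reticulum (chromosome 9, 53850164 to 53854560), was called in KO after novelty at 0.780 ± 0.0921 CPM, against 0.211 ± 0.0779 CPM in WT (1.93 ± 0.43, adjusted p = 0.0429 by edgeR). Myl4, an atrial and embryonic myosin light chain (chromosome 11, 104550663 to 104595753), was called in ifKO at 3.37 ± 0.343 CPM, against 1.76 ± 0.371 CPM in controls (0.93 ± 0.16, adjusted p = 0.0234). Its KO libraries were also all above their WT libraries, with 0.77 ± 0.23 in untreated KO (adjusted p = 0.214) and 1.00 ± 0.24 after novelty (adjusted p = 0.0673). Calls of Myh7b, Ryr1, Phkg1, Nrap, Sln and Myl4 were each lost in at least 3 of the 6 fits that left out 1 library of the groups compared.

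After novelty 1 of the 86 muscle list genes was called (1.16%, against 1.35% of all genes). It was Srf (chromosome 17, 46548329 to 46556175), serum response factor, which binds the CArG box. Srf had 64.7, 64.2 and 72.4 CPM in KO and 71.6, 65.5 and 70.5 CPM in WT after novelty, against 60.0, 54.6 and 60.3 CPM in untreated KO and 51.7, 59.0 and 59.2 CPM in untreated WT. All 6 novelty libraries lay above all 6 untreated ones (0.24 ± 0.05, adjusted p = 0.0478 by edgeR), and over the alternatives its adjusted p ran from 0.00398 to 0.145. Acta1, whose promoter above holds a CArG box, had -0.14 ± 0.09 in the same contrast. Any link between Srf and Acta1 was not tested.

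Relatives of the chosen genes from outside striated muscle, that is non-muscle and smooth muscle members of the same families, were called in none of the comparisons. Of 10 listed, 9 could be tested, and their log2 fold changes ran from -0.54 to 0.07 in untreated KO, from -0.17 to 0.12 in KO after novelty, from -0.17 to 0.07 in ifKO and from -0.35 to 0.12 with novelty. The cytoskeletal actin Actb averaged 705 CPM in untreated KO and 672 CPM in untreated WT (0.07 ± 0.07), and the brain creatine kinase Ckb 436 and 444 CPM (-0.02 ± 0.09). The mitochondrial creatine kinase Ckmt1 had -0.07 ± 0.08, the smooth muscle actin Acta2 -0.54 ± 0.43, and the non-muscle actinins Actn1 and Actn4 0.01 ± 0.06 and 0.01 ± 0.07. The formin Fhod1 had -0.09 ± 0.18, and the smooth muscle actin Actg2 was too low to test. Actg1 and Pgam1, the ubiquitous relatives of Acta1 and Pgam2, have near-identical copies in the genome, so their reads can be hard to assign. Their levels differed widely between the 2 experiments. Actg1 averaged 1.47 CPM in untreated KO and 1.75 CPM in untreated WT with single reads of 50 nt, and 234 CPM in ifKO and 231 CPM in controls with paired reads of 75 nt. Pgam1 averaged 10.8 CPM in both untreated KO and WT, and 75.1 CPM in ifKO and 72.8 CPM in controls. Their fold changes, -0.25 ± 0.22 and -0.01 ± 0.12 in untreated KO and 0.02 ± 0.03 and 0.04 ± 0.05 in ifKO, are uncertain because of these copies. The part of read length, pairing and strain in the gap between the experiments was not tested.

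The nearest tested genes on each side of the chosen ones, without overlap, were not called in any of the 4 comparisons. Tpgs2, which overlaps Fhod3, was not among them. Dbnl, 0.678 kb from Pgam2, had a log2 fold change of -0.16 ± 0.07 in untreated KO and -0.06 ± 0.04 in ifKO, and Nup133, 2.37 kb from Acta1, had 0.01 ± 0.08 and 0.01 ± 0.04. Amh, 0.848 kb from Jsrp1, had 0.70 ± 0.21 in untreated KO (adjusted p = 0.213 by edgeR), 0.33 ± 0.20 in KO after novelty and 0.51 ± 0.20 in ifKO. Tnni3, the cardiac troponin I gene 1.92 kb from Tnnt1, had -0.38 ± 0.28 in untreated KO. The longest gaps to a tested neighbour were 54.3 kb, from Actn2 to Heatr1, and 35.5 kb, from Fhod3 to AW554918.

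The summed levels of skeletal muscle markers overlapped between each mutant and its comparison group. The 11 defining markers of skeletal muscle other than Acta1 and Ckm summed to 3.11 to 4.02 CPM in untreated KO libraries, against 3.61 to 4.5 CPM in untreated WT. They summed to 3.26 to 4.46 CPM in KO and 3.29 to 3.89 CPM in WT after novelty, and to 3.73 to 4.87 CPM in ifKO, against 3.74 to 3.89 CPM in controls. Of these 11, 4 could be tested in KO and 6 in ifKO, and 0 were called, with median log2 fold changes of -0.42 in untreated KO, 0.16 in novelty KO and 0.06 in ifKO. Of single markers, Mb, the myoglobin gene, lay above its comparison group without overlap in all 3 comparisons. It had 0.169 to 0.459 CPM in untreated KO, against 0 to 0.133 CPM in untreated WT. After novelty it had 0.315 to 0.615 CPM in KO and 0.0474 to 0.129 CPM in WT. In ifKO it had 0.249 to 0.418 CPM, against 0.0268 to 0.207 CPM in controls. These values rest on 5 to 40 counts a group. No other of the 11 lay wholly above or wholly below in all 3. Tnnc2, the fast troponin C, had 11 counts in all 18 libraries and 0 in untreated KO. The 10 heart markers summed to 9.95 to 11.6 CPM in untreated KO and 9.11 to 10.7 CPM in untreated WT, to 10.7 to 11.4 CPM in KO and 6.30 to 10.7 CPM in WT after novelty, and to 11.9 to 15.3 CPM in ifKO, against 10.4 to 13.3 CPM in controls. Myh7 averaged 5.82 CPM of that sum in untreated KO and 4.94 CPM in untreated WT, and Actc1, the cardiac actin, had 5 counts in all 18 libraries. The 15 markers of smooth muscle and mural cells summed to 292 to 390 CPM in untreated KO and 357 to 465 CPM in untreated WT, to 282 to 385 CPM in KO and 295 to 337 CPM in WT after novelty, and to 284 to 306 CPM in ifKO, against 293 to 333 CPM in controls. None of the 14 that could be tested was called in any comparison. Untreated KO library 2, with its high choroid plexus markers, had the lowest Acta1 and Jsrp1 and the highest Pgam2 of its group. Without it the log2 fold changes in untreated KO were 1.99 for Acta1, 1.48 for Pgam2 and 1.73 for Jsrp1, given as a description.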

How the data were processed

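The authors deposited raw read counts per Ensembl gene, 1 file per library, without normalization. The submitters' processing notes name the aligner STAR (2.5.0c), the counter HTSeq (0.6.1), SAMtools (1.3), DESeq2 and the build GRCm38, but the sources used here do not give the strand setting. The 24 records describe 18 libraries, since the paired libraries of the inducible line have a record for each read. Reads in no feature (14.7 to 17.2%) and ambiguous reads (0.77 to 1.06%) were left out. Of 47069 gene IDs, 46574 were matched to GENCODE M21. Counts were fitted in R 4.3.3 with edgeR 4.0.16 (TMM factors, filterByExpr with a minimum count of 10 and total of 15, prior count 0.125 for fold changes), the 12 KO and WT libraries together and the 6 others alone, and adjusted p-values under 0.05 were called. The fits were also run on simulated data with known changes, set only in genes that were not of low level, and no result above rests on that run. The p-values measure the spread between pools. Alternatives were RLE factors, DESeq2 1.42.0, other low-count filters, the replicate number as a block, offsets for GC content and length, fewer groups and libraries left out. The 9 genes and all lists were chosen with earlier results of these data known. Beside the 9, every relative from outside striated muscle, each muscle list gene with an adjusted p under 0.05 (up to 6 per comparison and direction), the nearest tested neighbours and the 2 most correlated genes were named by rule. The list counts hold 1 gene that is not reported here by name and is left out of the plots, and 1 correlated gene is likewise not reported.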

Additional observations from a re-analysis of the deposited data

Results flagged for a closer look

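Nrap lay above its comparison groups in KO and below them in ifKO. In each of the 2 conditions all KO libraries lay above the WT libraries of that condition, with a log2 fold change of 1.40 ± 0.31 in untreated KO and 1.56 ± 0.36 in KO after novelty. All ifKO libraries, at 0.302, 0.573 and 0.553 CPM, lay below all control libraries, at 0.596, 0.670 and 0.589 CPM, with -0.39 ± 0.28. The difference between the 2 experiments was not tested. The ifKO libraries held 13, 22 and 20 counts of Nrap, and the untreated KO libraries 61, 30 and 37.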

How the results depend on the processing

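Acta1, Pgam2, Jsrp1 and Capn3 kept their direction and their calls in the 3 genotype comparisons under all alternatives run. For Acta1, Pgam2 and Jsrp1, chosen on these contrasts in the same libraries, this is a description. Neb, not called in untreated KO, was called in 5 of 14 alternatives there and in 3 of 14 after novelty. Fhod3 in untreated KO was called in 1 of the 6 fits that left out a library of the groups compared and in all 8 others. Ttn after novelty was called lower in 2 of 14, both without KO library 2.

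Counts of called genes moved by over 1.5 times in several settings, and the cause was not tested. With DESeq2, 9 muscle list genes were called in KO after novelty, and 429 genes and 4 list genes with novelty. Without a low-count filter, more genes were tested: 347 genes were called in untreated KO, 415 with novelty and 398 in ifKO, and 9, 3 and 6 list genes were called in KO after novelty, with novelty and in ifKO. With the GC and length offsets, 340 genes were called in untreated KO, 354 genes and 9 list genes in KO after novelty, and 686 genes and 3 list genes with novelty. With only the groups compared in the fit, 318 genes were called in untreated KO, and 104 genes and 2 list genes in KO after novelty. Without both deviating novelty libraries, 415 genes were called in untreated KO, 705 genes and 9 list genes in KO after novelty, and 454 genes and 3 list genes with novelty. With 1 library left out, 121 to 149 genes and 2 to 3 list genes were called in untreated KO, 144 to 282 and 2 to 6 in KO after novelty, 56 to 102 and 2 to 3 in ifKO, and 91 to 298 and 0 to 2 with novelty.

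Same-numbered libraries of compared groups had correlations of deviations from -0.18 to 0.30. In novelty they were 0.09, 0.30 and 0.08. No clear pairing by number was seen, but so few libraries cannot exclude one. With the replicate block, 173 genes were called in untreated KO, 202 in KO after novelty, 97 in ifKO and 160 with novelty, and 4, 5, 3 and 0 list genes.

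Novelty values of chosen genes, none of them called, changed sign in places. Jsrp1 was at -0.03 and Ttn at -0.18 without both deviating libraries, and Neb at -0.03 there and with the offsets, where Ttn was at -0.06. With 1 library left out, the values ran from -0.02 to 0.08 for Pgam2, -0.03 to 0.16 for Jsrp1, -0.20 to 0.38 for Ttn, -0.15 to 0.19 for Neb, -0.10 to 0.08 for Fhod3 and -0.20 to 0.01 for Tnnt1. Depth limits Ckm, Tnnt1, Nrap, Sln and Mb most, since they had under 100 counts in most groups. With 3 pools a group, values of single genes move with 1 library.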
